A study of Homo sapiens with 6 samples.

Results

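The mevalonate pathway enzymes described here are 8 genes, ACAT2, HMGCS1, MVK, PMVK, MVD, IDI1, FDPS and GGPS1. They were chosen by symbol from their known place in the pathway, and all 8 had a row among the 17104 genes of the deposited count table. This choice was made with earlier results of these data known, so the counts of calls below are a description. The counts come from RNA-seq of total RNA from HBMEC, a line labelled as human brain microvascular endothelial cells. The group labelled CON was kept in normal culture and the group labelled OGD went through OGD/R, a cell model of ischaemia in which oxygen and glucose are withdrawn and then given back, and each had 3 libraries. How long either phase lasted is not given in the sources used. No label ties the libraries of a group to separate cultures, so the p-values reflect only the spread among these samples, and that spread may be technical.

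The mevalonate pathway turns acetyl-CoA into isoprenoid building blocks in the cytosol and endoplasmic reticulum. These feed cholesterol, the lipid anchors of small GTPases, dolichol for protein glycosylation and the side chain of ubiquinone. When sterols in the endoplasmic reticulum run low, the SREBP transcription factors are cleaved and drive most genes of the pathway. In endothelium, isoprenoid anchors on small GTPases are known for their part in barrier regulation.

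Transcripts of 7 of the 8 enzymes rose after OGD/R and 0 fell (edgeR quasi-likelihood test, adjusted p below 0.05). At an unadjusted p under 0.05 the counts were also 7 and 0, and DESeq2 and limma-voom each gave 7 and 0. Over all genes tested, 10.2% were called higher by the same rule and 9.48% lower, 19.7% in all. Among the 7812 genes within the range of mean levels that the 8 enzymes span, 14.7% were called higher. The median log2 fold change of the 8 was 0.49, beside 0.00 over all genes. The phosphomevalonate kinase gene PMVK was the member that did not pass. In the same 7 enzymes every OGD/R library lay above every control library, where 16.4% of all genes were separated in this direction and 16.6% in the other. Within the members' range of levels the share separated upwards was 21.1%. In bulk RNA a change in the number of cells of a kind and a change in RNA per cell cannot be told apart.

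Library totals were 31048662 to 34484647 counts, and the members held 421 to 6811 counts per library, the fewest in GGPS1. The labelled cell type was checked against marker genes. Of 12 endothelial markers, 4 had a row (CDH5, ESAM, ROBO4 and ENG), with a summed level of 228 to 238 CPM in control and 228 to 240 CPM after OGD/R, where CPM is a gene's count scaled to a common library total after TMM normalisation. The endothelial markers not analysed here for want of a row were PECAM1, VWF, KDR, TEK, TIE1, ERG, CLDN5 and EMCN. Every gene with a row held at least 10 counts in 3 or more libraries. Why other markers have no row was not tested. Of 10 epithelial markers, 8 had a row, with a summed level of 2485 to 2711 CPM in control and 3048 to 3104 CPM after OGD/R. The epithelial sum lay above the endothelial sum in every library, so these markers do not by themselves bear out the endothelial label. Per gene, the median level over all libraries was 49.6 CPM for the epithelial rows and 46.8 CPM for the endothelial rows. The epithelial markers KRT8, KRT18, KRT7 and ELF3 rose, and of the endothelial ones CDH5 rose and ROBO4 fell. The part of this marker shift in the enzyme result was not tested.

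The first steps join acetyl-CoA units. ACAT2, the cytosolic thiolase that makes acetoacetyl-CoA, was measured at 56.1, 55.2 and 52.6 CPM in control replicates 1, 2 and 3 and at 98.3, 99.5 and 101 CPM in the OGD/R replicates. No OGD/R library came near the control range. The log2 fold change was 0.87 ± 0.05 (SE, n = 3 per group, edgeR adjusted p = 1.37e-17), which is 1.83-fold (95% interval 1.70 to 1.97). By p-value ACAT2 ranked 3 among all 17104 genes. HMGCS1, the cytosolic synthase that adds the next acetyl unit to give HMG-CoA, had 88.1, 86.4 and 84.98 CPM in control and 122, 125 and 137 CPM after OGD/R. The lowest OGD/R library was thus well above the highest control. The log2 fold change of HMGCS1 was 0.56 ± 0.05 (SE, n = 3 per group, edgeR adjusted p = 1.41e-12). HMG-CoA is then reduced to mevalonate, a step that is not analysed here.

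**Figure D1:**
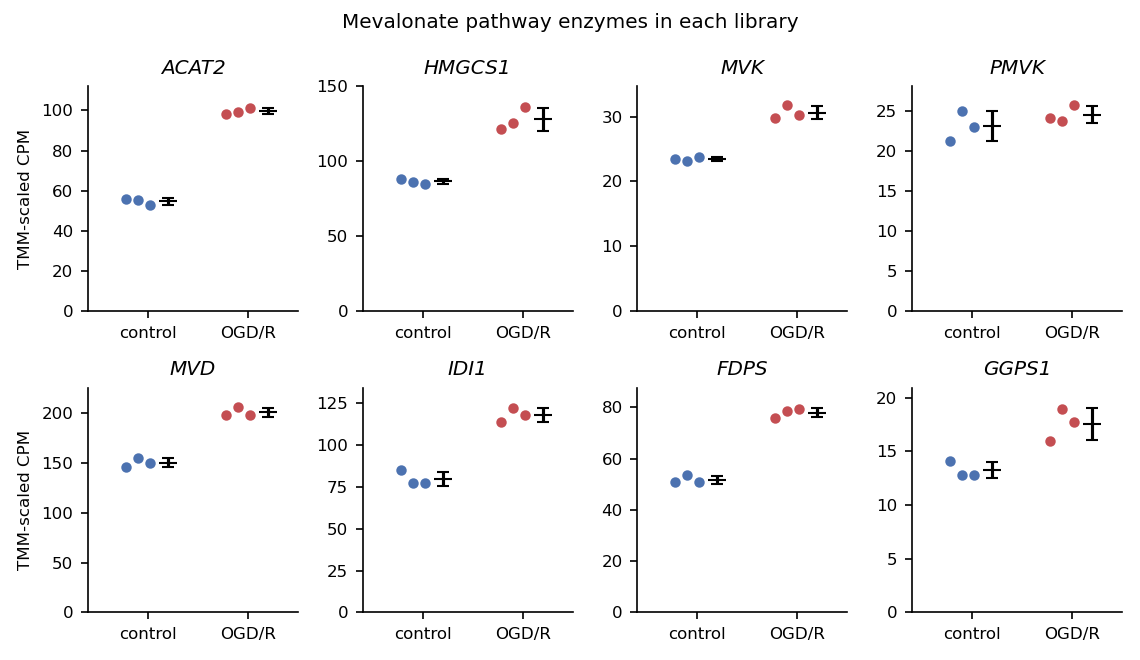
TMM-scaled CPM (y axis, from 0) of the 8 mevalonate pathway enzymes in the 3 control (blue) and 3 OGD/R libraries (red), with the mean ± SD beside the points. The groups are separate in 7 panels, from 54.6 to 99.7 CPM for ACAT2, and overlap for PMVK, at 23.1 and 24.6 CPM.

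The next enzymes phosphorylate mevalonate and split off carbon dioxide. MVK, mevalonate kinase, stood at 23.5, 23.1 and 23.8 CPM in control and at 29.8, 31.7 and 30.3 CPM after OGD/R, with log2 fold change 0.39 ± 0.08 (SE, n = 3 per group, edgeR adjusted p = 0.000171). Its control libraries differed little, with a coefficient of variation of 1.46%. PMVK, which adds the next phosphate, was at 21.3, 25.02 and 22.98 CPM in control and at 24.1, 23.7 and 25.8 CPM after OGD/R. Control replicate 2 lay above the OGD/R libraries 1 and 2, and the groups overlapped. The log2 fold change of PMVK was 0.09 ± 0.08 (SE, edgeR adjusted p = 0.525), with a 95% interval of −0.08 to 0.26, that is 0.95-fold to 1.20-fold. The log2 fold changes fitted for MVK and MVD lie above this interval. The 95% interval of MVK (0.23 to 0.54) overlaps it, and that of MVD (0.33 to 0.50) does not. MVD, the decarboxylase that yields isopentenyl diphosphate, had 146, 156 and 150.2 CPM in control and 199, 206 and 198 CPM after OGD/R. MVD was the member with the most counts, and all of its OGD/R libraries exceeded its control libraries (log2 fold change 0.42 ± 0.04 SE, edgeR adjusted p = 1.73e-10).

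The ratio of neighbouring enzymes within each library was examined after these values had been seen, so total depth cancels. The log2 ratio of MVK to PMVK was 0.14, −0.11 and 0.05 in control and 0.31, 0.42 and 0.23 after OGD/R. That of MVD to PMVK was 2.78, 2.64 and 2.71 in control and 3.04, 3.12 and 2.94 after OGD/R. Both ratios were higher in all 3 OGD/R libraries than in any control library, by means of 0.29 and 0.33. The two-sided exact permutation test gave p = 0.1 for each, the smallest that 3 against 3 libraries allow, and 0.2 after Benjamini-Hochberg adjustment over the 4 ratios examined. The ratio of MVD to MVK differed between the groups by 0.03 (exact p = 0.5), less than the spread between control libraries (SD 0.06). A permutation test of this size cannot pass 0.05, so its p-values do not decide whether PMVK moved differently from its neighbours.

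The last enzymes isomerise and join the 5-carbon units. IDI1, isopentenyl diphosphate isomerase, was measured at 84.9, 77.5 and 77.1 CPM in control and 114, 122 and 118 CPM after OGD/R, a log2 fold change of 0.56 ± 0.05 (SE, n = 3 per group, edgeR adjusted p = 2.70e-12). FDPS, which makes geranyl and farnesyl diphosphate and is the target of bisphosphonate drugs, was at 50.7, 53.5 and 50.9 CPM in control and 75.9, 78.7 and 79.3 CPM after OGD/R. In both genes the control and OGD/R libraries formed separate ranges. The log2 fold change of FDPS was 0.59 ± 0.06 (SE, edgeR adjusted p = 1.35e-11). GGPS1, which extends farnesyl to geranylgeranyl diphosphate for small GTPases such as the Rab proteins, had 14.1, 12.8 and 12.8 CPM in control and 15.95, 18.98 and 17.7 CPM after OGD/R. The gap between its groups was the narrowest of the 7 that rose, between control replicate 1 and OGD/R replicate 1 (0.40 ± 0.10 SE, edgeR adjusted p = 0.00257). The log2 ratio of FDPS to GGPS1 was 1.97 in control and 2.16 after OGD/R, and the groups overlapped (exact p = 0.2).

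**Figure D2:**
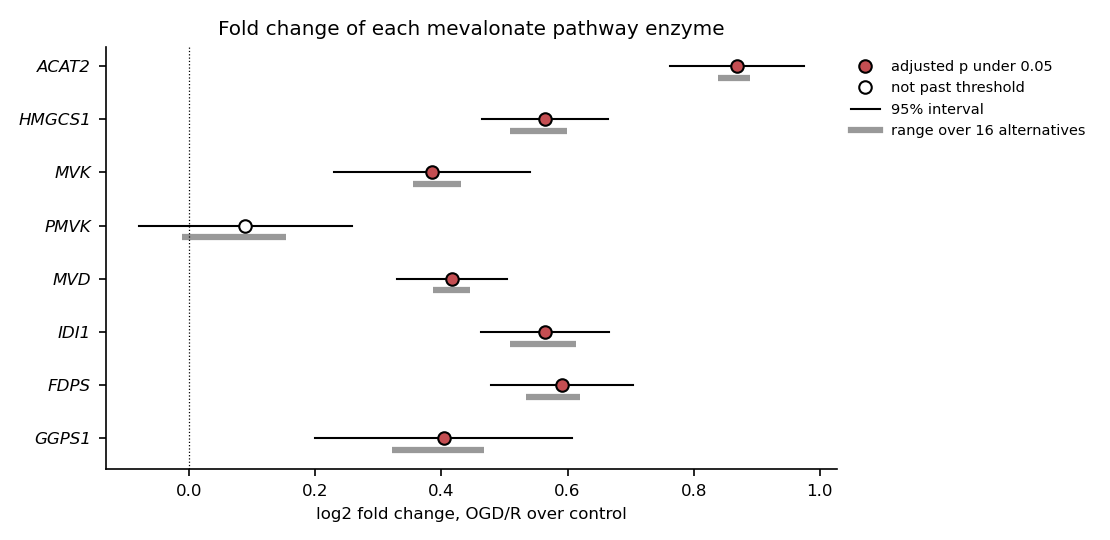
Log2 fold change of OGD/R over control (x axis) for each enzyme in pathway order (y axis), with its 95% interval (black line) and the range of its value over 16 alternative analyses (grey bar). The intervals of 7 enzymes lie above 0, and that of PMVK runs from −0.08 to 0.26.

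Per kilobase of the principal transcript in GENCODE 29, the control levels ran from 82.5 ± 2.71 CPM per kb for MVD to 4.58 ± 0.27 CPM per kb for GGPS1 (mean ± SD, n = 3). In between came FDPS at 35.0 CPM per kb, HMGCS1 at 24.7, IDI1 at 23.7, PMVK at 18.0, ACAT2 at 17.2 and MVK at 8.54, all as levels. The libraries of HMGCS1 and IDI1 overlapped, as did those of PMVK and ACAT2, so neither pair can be ordered in control. After OGD/R, ACAT2 lay at 31.4 ± 0.50 CPM per kb and PMVK at 19.2 ± 0.87, with no overlap, while HMGCS1 and IDI1 overlapped again. With the longest transcript in place of the principal one the means had the same order in each group. These lengths differ only for MVD, FDPS and MVK. The order within the pairs HMGCS1 and IDI1, and PMVK and ACAT2, could therefore not change. The summed level of the 8 enzymes was 475 to 489 CPM in control and 678 to 707 CPM after OGD/R.

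A fit with an offset for transcript length and GC content, which can shift fold changes between libraries, was set beside the one above. It gave 0.85 for ACAT2, 0.51 for HMGCS1, 0.43 for MVK, 0.42 for MVD, 0.51 for IDI1, 0.53 for FDPS and 0.32 for GGPS1, and the 7 enzymes still passed. PMVK, which has the shortest transcript of the 8 with 1280 nucleotides, was then at −0.01 (adjusted p = 0.952).

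Exons of several members overlap other genes, and no source used here says whether the counting used strand. Reads from shared stretches can then not be told apart. For ACAT2, 52.3% of the exon bases overlap another gene. These genes lie on the opposite strand. SOD2-OT1 shares 33.9% of the ACAT2 exon bases and an annotated SOD2 gene (ENSG00000285441) 26.5%, and neither ID had a row. TCP1, a chaperonin subunit, shares 9.23% and rose from 311 to 388 CPM (0.32 ± 0.04). For GGPS1, 41% of the exon bases are shared, 37.3% with a gene on the same strand (ENSG00000285053) that rose from 1.81 to 3.30 CPM. FDPS shares 18.6% with the antisense gene RUSC1-AS1, which rose from 10.6 to 13.3 CPM, and has 8 named pseudogenes in GENCODE 29, of which 1 had a row. IDI1 shares 14.8% with IDI2-AS1 (0.49 ± 0.25, adjusted p = 0.191) and HMGCS1 15% with an antisense gene without a row. MVD and PMVK overlap no other gene. How far shared reads enter the values of the members was not tested.

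MVK has a divergent neighbour, MMAB, an enzyme of vitamin B12 metabolism with which it is known to share a promoter. Their exons overlap by 4.72% of the MVK exon bases. MMAB was at 8.60, 8.43 and 8.18 CPM in control and 12.8, 11.9 and 14.2 CPM after OGD/R. It rose by a log2 fold change of 0.63 ± 0.12 (SE, n = 3 per group, edgeR adjusted p = 6.52e-05), with separate groups.

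Since 7 of the enzymes rose together, the bases before the start sites of the members were searched for motifs on both strands. RefSeq windows (GRCh38.p14) matched 7 of the 8 members, PMVK and the enzymes that rose other than ACAT2, with 12 start sites in all, and the 250 bases upstream of each were read. The motifs were CCAAT, the box bound by NF-Y, which is known to act beside SREBP at sterol genes; GGGCGG, the GC box; CACGTG, an E-box; and TCACNCCAC, an SRE-like sequence. The CCAAT box was present before a start site of 6 of the 7 genes and occurred at least 2 times in 5 of them. Of all 35116 upstream windows, 32% held it at least once and 9.53% at least 2 times, and a gene with several start sites has more windows in which to hold it. The 5 genes with repeated boxes are shown in pathway order, followed by PMVK, the member that did not pass, which has none. Each line is 1 start site, 5′ to 3′, and capitals mark CCAAT or its reverse complement ATTGG.
HMGCS1, chr5:43313413-43313662 on the minus strand: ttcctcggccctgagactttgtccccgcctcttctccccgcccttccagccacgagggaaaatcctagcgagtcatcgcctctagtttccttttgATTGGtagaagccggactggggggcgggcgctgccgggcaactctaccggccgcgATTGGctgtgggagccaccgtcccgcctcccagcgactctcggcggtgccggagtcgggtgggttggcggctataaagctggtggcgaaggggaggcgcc
MVK, chr12:109573544-109573793 on the plus strand: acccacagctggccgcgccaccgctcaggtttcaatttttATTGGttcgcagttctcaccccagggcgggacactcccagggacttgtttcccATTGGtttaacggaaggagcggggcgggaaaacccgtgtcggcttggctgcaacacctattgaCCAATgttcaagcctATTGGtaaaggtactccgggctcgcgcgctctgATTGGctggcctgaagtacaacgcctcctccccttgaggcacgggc
MVD, chr16:88663092-88663341 on the minus strand: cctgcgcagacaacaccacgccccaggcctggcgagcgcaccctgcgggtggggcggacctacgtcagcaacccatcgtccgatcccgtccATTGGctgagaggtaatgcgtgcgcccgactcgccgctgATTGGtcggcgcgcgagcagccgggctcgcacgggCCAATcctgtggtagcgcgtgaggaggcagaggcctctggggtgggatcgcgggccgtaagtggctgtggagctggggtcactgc
IDI1, chr10:1049120-1049369 on the minus strand: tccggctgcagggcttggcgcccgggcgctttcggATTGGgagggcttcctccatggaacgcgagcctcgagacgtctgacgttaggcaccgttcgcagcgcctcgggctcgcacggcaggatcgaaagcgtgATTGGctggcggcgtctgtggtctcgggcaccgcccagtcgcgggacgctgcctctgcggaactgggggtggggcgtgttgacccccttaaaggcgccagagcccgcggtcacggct
FDPS, chr1:155308616-155308865 on the plus strand: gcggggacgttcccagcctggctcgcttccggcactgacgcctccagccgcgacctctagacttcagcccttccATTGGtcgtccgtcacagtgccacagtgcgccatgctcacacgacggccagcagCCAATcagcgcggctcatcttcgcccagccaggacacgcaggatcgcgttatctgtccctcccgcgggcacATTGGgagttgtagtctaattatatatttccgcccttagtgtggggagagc
PMVK, chr1:154936720-154936969 on the minus strand: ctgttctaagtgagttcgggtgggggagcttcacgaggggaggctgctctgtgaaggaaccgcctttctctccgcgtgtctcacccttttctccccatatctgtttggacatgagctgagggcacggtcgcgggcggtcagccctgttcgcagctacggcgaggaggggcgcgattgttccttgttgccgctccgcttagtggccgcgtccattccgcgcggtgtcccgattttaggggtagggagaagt
MVK held 5 CCAAT boxes, MVD and FDPS 3 each and HMGCS1 2, at its upstream start site, and 0 at its other. IDI1 had 2 at the start site shown, 3 at another and 0 at the most distal. In the second IDI1 window the first 2 of the 3 matches overlap. GGPS1 held 1, at 240 bases before 1 of its 3 start sites, and 0 at the others. The GC box was found before at least 1 start site of all 7 genes, though 1 GGPS1 window held 0. Of all windows 42.6% hold it, and several start sites give a gene more windows. Neither TCACNCCAC (0.883% of all windows) nor CACGTG (6.34%) was found in the 12 windows. The search took exact letters in the 250 upstream bases alone. An SRE-like sequence with other letters, or outside these bases, would be missed. A match is a run of letters and was not tested for binding.

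**Figure D3:**
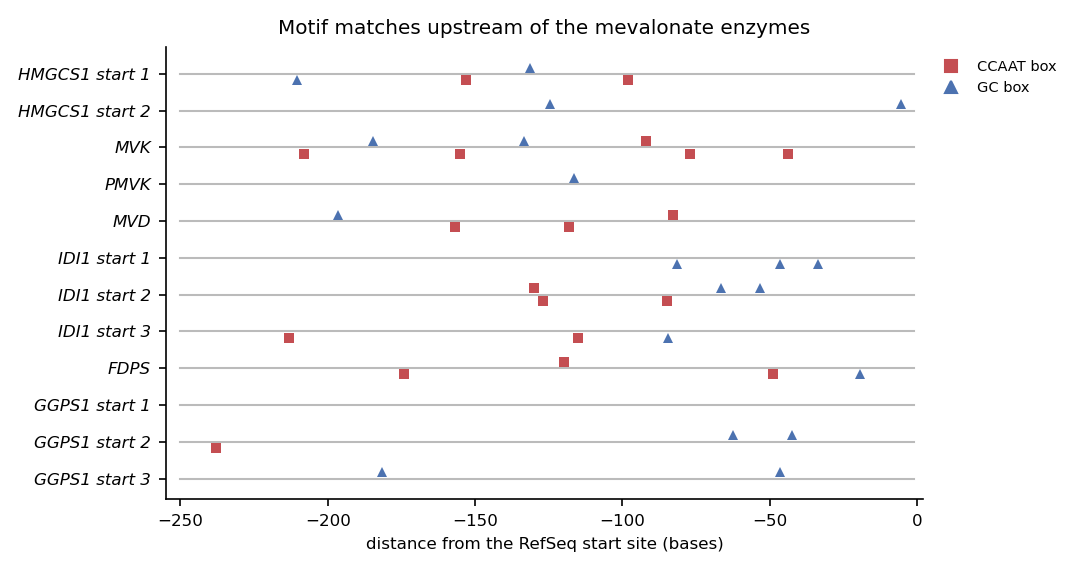
Position of CCAAT boxes (red squares) and GC boxes (blue triangles) in the 250 bases before each RefSeq start site (x axis, bases from the start) of the 7 matched enzymes (y axis); marks above a line are on the gene's strand and marks below it on the other. MVK carries 5 CCAAT boxes and PMVK 0, and some windows of HMGCS1, IDI1 and GGPS1, which rose, also carry 0.

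The genes on either side of the pathway were described from fixed lists, by counts of genes past the same edgeR threshold. Over all genes, 10.2% were called higher and 9.48% lower at that threshold. Of the 12 enzymes from squalene to cholesterol, 11 rose and 0 fell, with a median log2 fold change of 0.44. FDFT1, the squalene synthase that draws directly on the product of FDPS, rose from 112 to 166 CPM (0.57 ± 0.05). DHCR7, a reductase of the last steps, rose from 166 to 243 CPM (0.55 ± 0.04). The member that did not pass was CYP51A1, the lanosterol demethylase (0.02 ± 0.14). This list and the mevalonate enzymes were both known to be high in these libraries when the comparison was set up.

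Upstream, 5 of 7 genes of acetyl-CoA supply rose and 0 fell, with a median of 0.18. SLC25A1, the mitochondrial citrate carrier, rose from 178 to 237 CPM (0.42 ± 0.04), PDHB, a pyruvate dehydrogenase subunit, from 43.9 to 57.0 CPM (0.38 ± 0.06), and ACLY, which splits citrate into cytosolic acetyl-CoA, from 404 to 457 CPM (0.18 ± 0.04). Of the mitochondrial and ketone body relatives of the early enzymes, 6 were measured, of which 0 rose and 1 fell, beside 10.2% and 9.48% over all genes, with a median of −0.03 (1 and 1 at an unadjusted p under 0.05, 0 and 1 by DESeq2 and by limma-voom). ACAT1, the mitochondrial counterpart of ACAT2, had a value of 0.02 ± 0.06 (adjusted p = 0.895). BDH1, a ketone body dehydrogenase, fell from 20.8 to 15.7 CPM (−0.41 ± 0.09).

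The isoprenoid branches other than cholesterol had no gene past the threshold, where 10.2% of all genes were called higher and 9.48% lower. Lists as short as these can hold 0 called genes at such shares. For protein prenylation, 0 of 10 genes rose and 0 fell in edgeR's test, and the counts were 0 and 0 at an unadjusted p under 0.05, by DESeq2 and by limma-voom. Their values lay between −0.05 and 0.07, with ZMPSTE24, a protease that trims prenylated prelamin A, at 0.07 ± 0.05 and CHML, a Rab escort protein, at 0.04 ± 0.05. For dolichol synthesis the counts were 0 and 0 of 5 in each of these tests. The 2 subunits of the cis-prenyltransferase, NUS1 and DHDDS, were at −0.08 ± 0.05 and −0.09 ± 0.07. For ubiquinone and menaquinone synthesis, 0 of 11 rose and 0 fell (4 and 0 at an unadjusted p under 0.05, 0 and 0 by DESeq2 and by limma-voom). The median there was 0.19. COQ9 was at 0.18 ± 0.07 (adjusted p = 0.0751) and COQ6, a hydroxylase, at 0.37 ± 0.16 (adjusted p = 0.101). Whether these lists differ from the mevalonate enzymes as groups was not tested.

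Of 7 genes of sterol sensing and SREBP processing, 2 rose and 0 fell, beside 10.2% and 9.48% over all genes. The median log2 fold change of this list was −0.005. INSIG1, which retains the SREBP complex in the endoplasmic reticulum when sterols are high and is itself a SREBP target, rose from 85.2 to 133 CPM (0.65 ± 0.05). SREBF2, which encodes the SREBP of cholesterol synthesis, rose from 189 to 211 CPM (0.16 ± 0.04, adjusted p = 0.00404). SREBF1 (−0.01 ± 0.04) and the escort SCAP (0.00 ± 0.05) did not pass. Of 7 genes of fatty acid synthesis that SREBPs are known to drive, 6 rose and 0 fell, with a median of 0.30. SCD, the stearoyl-CoA desaturase, rose from 655 to 858 CPM (0.39 ± 0.04), FASN, fatty acid synthase, from 676 to 833 CPM (0.30 ± 0.04), and the elongase ELOVL6 from 40.1 to 54.2 CPM (0.43 ± 0.06).

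**Figure D4:**
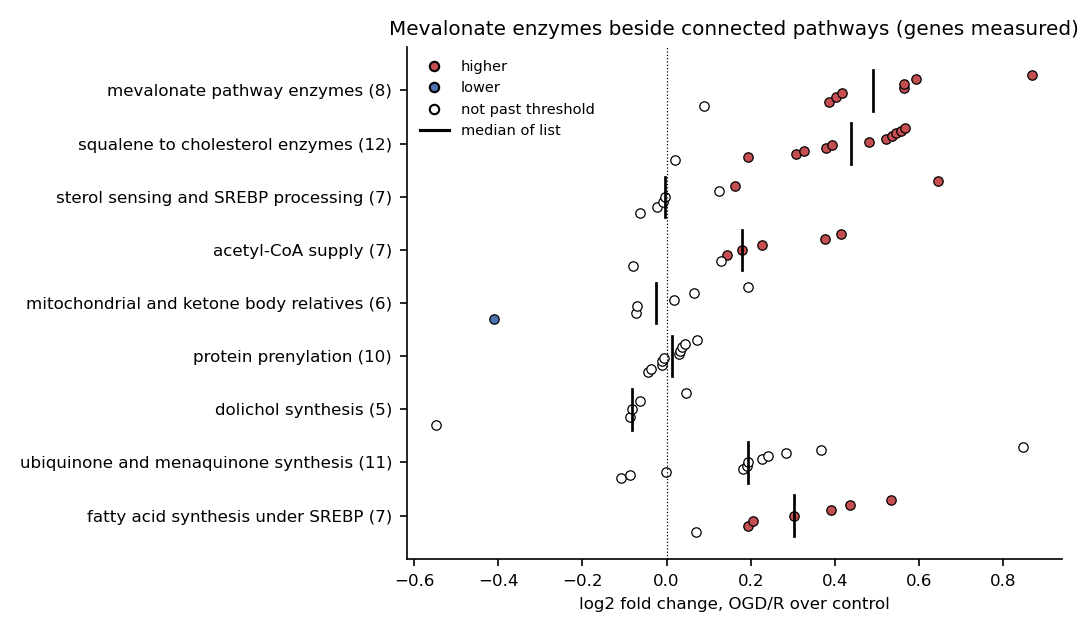
Log2 fold change of OGD/R over control (x axis) of each measured gene in the mevalonate list and 8 connected lists (y axis, number of genes measured in brackets); filled points passed edgeR's adjusted threshold and black bars are list medians. The medians are 0.49 for the mevalonate enzymes, 0.44 for squalene to cholesterol and 0.01 for protein prenylation.

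The likeness of other genes to the mean profile of the 7 enzymes that rose was measured as the root mean square difference of centred log2 levels over the 6 libraries. Of 11176 genes averaging 5 CPM or more, the 5 closest included HNRNPA2B1 (0.02), PQBP1 (0.03), CCNB1 (0.03) and DHCR7 (0.03), with log2 fold changes of 0.53 to 0.55. DHCR7 belongs to cholesterol synthesis, HNRNPA2B1 and PQBP1 to RNA processing and CCNB1 to mitosis. Within the enzymes themselves this difference was 0.04 for IDI1, FDPS and HMGCS1, 0.17 for ACAT2 and 0.24 for PMVK. IDI1, FDPS and HMGCS1 thus lay closest to the shared profile, although each enters the mean, and ACAT2 differed from it by its larger change.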

How the data were processed

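RNA-seq was run on 6 libraries, 3 control and 3 OGD/R, grouped by sample title. The authors deposited whole-number read counts per human Ensembl gene in 1 table. Per the submitters' processing notes, Trimmomatic, HISAT2, SAMtools, featureCounts and edgeR were used. These notes name the mouse build GRCm38, so the build behind the counts is uncertain, and the only coordinates printed are those of RefSeq promoter windows. Each of the 17104 genes had at least 10 counts in 3 or more libraries, and 17093 matched a symbol.

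Counts were scaled by TMM and tested over all genes with edgeR 4.0.16 (R 4.3.3), quasi-likelihood with robust dispersions, two-sided, without a replicate block. P-values were adjusted by Benjamini-Hochberg, and 0.05 was the threshold. filterByExpr (minimum count 10) removed 0 genes. Standard errors came from the fold change and the F statistic. The procedure was tested on simulated data. Chi-square statistics per degree of freedom were 4.1 to 7.53 within groups, so no library was a duplicate. Alternatives were other scalings and filters, DESeq2 1.42.0, limma-voom (limma 3.58.1), the replicate block, a length and GC offset (mgcv 1.9.3, fitted on 10839 genes) and leaving out each library.

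The members and lists were chosen with earlier results of these data known. All 8 members are named. From each connected list the rule took up to 3 changed genes with the smallest p or, with none changed, 2 genes with the smallest p; further list members were named after their values were seen. Genes with exons overlapping a member were added, and the 5 genes of closest profile. Some genes that these rules picked are not reported here.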

Additional observations from a re-analysis of the deposited data

How the results depend on the processing

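The 7 enzymes that rose kept their direction and passed in each of the 16 alternatives, and the count of members was 7 higher and 0 lower throughout. GGPS1 came closest to the threshold, with adjusted p up to 0.0364 (without OGD replicate 2), and its log2 fold change ranged from 0.32 to 0.47. PMVK passed in none (adjusted p 0.273 to 0.952); it turned to −0.0103 with the length and GC offset, and to −0.0108 with that offset and the replicate block, and leaving out 1 library moved it between 0.04 and 0.15. Over all genes, 1749 were called higher and 1621 lower, against 1383 and 2098 when total counts alone set the scale. Leaving out 1 library gave 1293 to 1840 higher and 1079 to 1527 lower; the lowest count of lower genes was that without CON replicate 3. Over the connected lists, 252 of 256 alternative counts stayed within 1.5 times; the other 4 each added 1 higher gene to a list with 0 (ketone body relatives with the length and GC offset, with or without the replicate block, and without CON replicate 2, which also added 1 in ubiquinone synthesis). The filter alternative without a minimum tested the same genes and shows nothing about filtering.

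Same-numbered libraries deviated together little or not at all (correlations over 11531 genes of 0.00, 0.08 and 0.00). Not every library correlated best with its own number. A check on 3 libraries per group cannot decide whether the numbers pair the samples. With the replicate block, 1827 genes were higher and 1702 lower, ACAT2 was at 0.87 and PMVK at 0.09 (adjusted p 0.526), and no call among the members changed. With 421 to 594 counts per library GGPS1 had the widest interval (0.20 to 0.61).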

Other observations

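The CCAAT box was counted in the connected lists by the same search of the 250 upstream bases. It was present in 8 of the 9 squalene-to-cholesterol genes with a RefSeq window and in 5 of 7 genes of acetyl-CoA supply. It was present in 3 of 6 genes of fatty acid synthesis, 3 of 5 of dolichol synthesis, 4 of 8 of ubiquinone and menaquinone synthesis and 2 of 7 of sterol sensing. It was present in 1 of 9 genes of protein prenylation and in 1 of 6 mitochondrial and ketone body relatives. Of all upstream windows 32% held it, and a gene with several start sites has more windows in which to hold it. Repeated boxes, at least 2 in a window, were found in 4 of the 9 squalene-to-cholesterol genes, such as NSDHL with 5, MSMO1 with 4 and EBP with 3, and in 4 of 8 genes of ubiquinone and menaquinone synthesis, with 0 to 2 such genes in each of the other lists. The share of genes with a box is a description of these windows and was not tested.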
